A study of Mus musculus with 12 samples.

Results

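Progranulin (Grn) and 3 of its lysosomal partners, sortilin (Sort1), prosaposin (Psap) and Tmem106b, were followed in laser-captured entorhinal neurons of mice without the lysosomal enzyme Naglu. They are 4 of the 27566 gene names on the array, read by 11 of its 41174 probes: 2 for Grn, 4 for Sort1, 2 for Psap and 3 for Tmem106b. Probes were taken by the gene name in the scanner output. The genes were chosen by role and on measured values of these data, their levels in MEC and LEC and their mutant ratios, so those values are descriptions: a count of members past a threshold is only set beside the share of all probes, and supports nothing. Of the 11 probes, 6 passed the filter on dim spots and entered the fit of 12958 probes. To pass, a probe had to stand well above background in 4 or more of the 6 readings that a region and genotype has.

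Neurons came from 2 parts of the entorhinal cortex, medial (MEC) and lateral (LEC), of female C57BL/6 mice aged 2 months. Mutants were Naglu-/-, a model of Sanfilippo syndrome type B in which heparan sulfate is not degraded, and controls were Naglu+/- littermates, so every control carried 1 disrupted copy as well. Per the labels, 500 stained neurons per region were captured from sections of 12 µm, with RNA amplified before labelling. Each region had 3 pairs of a mutant and a control, and each pair was hybridised on 2 dual-dye Agilent arrays with the dyes swapped, 12 arrays in all. Whether the same mice gave a MEC and a LEC pair is not given in the sources used here.

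Progranulin is a secreted glycoprotein that is cut into granulins inside lysosomes. Sortilin binds it at the cell surface and carries it to lysosomes, and prosaposin, the precursor of the saposins that help sphingolipid hydrolases, offers another route through prosaposin's own receptors. Loss of a single GRN copy causes frontotemporal dementia, loss of both causes a neuronal ceroid lipofuscinosis, and variants at TMEM106B, which encodes a lysosomal membrane protein, modify the risk of the dementia.

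The promoter stretches of Grn, Psap and Tmem106b are shown because the levels of these 3 genes were separated between regions without overlap. Each holds the 250 bases before the gene's start in the RefSeq promoter table of build GRCm38.p6, plus strand, 5′ to 3′: chr11:102430257-102430506 for Grn, chr10:60277378-60277627 for Psap, which has 2 listed starts of which the first was used, and chr6:13069509-13069758 for Tmem106b. Sort1 was not found in that table. Capitals mark the motifs CCAAT and GGGCGG where they occur on either strand.
Grn: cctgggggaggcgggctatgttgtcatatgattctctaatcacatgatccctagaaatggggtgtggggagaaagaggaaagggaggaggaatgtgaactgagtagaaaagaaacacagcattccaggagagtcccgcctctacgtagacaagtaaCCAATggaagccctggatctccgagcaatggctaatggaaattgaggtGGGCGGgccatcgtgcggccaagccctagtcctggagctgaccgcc
Psap: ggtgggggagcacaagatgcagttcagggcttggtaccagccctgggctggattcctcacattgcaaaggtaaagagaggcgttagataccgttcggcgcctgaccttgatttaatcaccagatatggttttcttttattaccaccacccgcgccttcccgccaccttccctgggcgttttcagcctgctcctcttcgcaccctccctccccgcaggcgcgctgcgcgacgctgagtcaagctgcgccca
Tmem106b: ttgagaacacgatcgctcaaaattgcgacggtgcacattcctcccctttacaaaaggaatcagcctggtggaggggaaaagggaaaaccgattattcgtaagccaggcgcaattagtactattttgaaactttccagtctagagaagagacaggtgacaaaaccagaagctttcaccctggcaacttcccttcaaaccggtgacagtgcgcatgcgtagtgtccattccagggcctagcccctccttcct
The Grn stretch held 1 CCAAT and 1 GGGCGG, which do not overlap, and the Psap and Tmem106b stretches held neither. CCAAT occurred in 33.9% and GGGCGG in 32.7% of all 32851 promoter windows of this length. CACGTG, the core of the motif read by the lysosomal regulator TFEB, was in 0 of the 3 stretches and in 6.02% of all windows. A match of letters is a description and not a binding site.

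The probes lie in build mm8, which differs from the build of the promoter stretches, and whether they fall in an exon or a UTR is not given in the sources used here. Grn probe 1 (A_52_P508750) is on chromosome 11 from 102249367 to 102249426, and Grn probe 2 (A_51_P192800) from 102252468 to 102252527. The Sort1 probes on chromosome 3 are probe 1 (A_52_P590396) from 108489487 to 108489546, probe 2 (A_52_P568257) from 108485981 to 108486040, probe 3 (A_51_P423456) from 108485921 to 108485980, and probe 4 (A_51_P517145), whose ends span 2049 bases from 108482288 to 108484336. On chromosome 10, Psap probe 1 (A_52_P508089) runs from 59697434 to 59697493 and Psap probe 2 (A_51_P136820) from 59697101 to 59697160. On chromosome 6, Tmem106b probe 1 (A_51_P419971), designed on the expressed sequence tag BU515288, runs from 13038955 to 13039014. Tmem106b probe 2 (A_51_P135066) runs from 13034402 to 13034461 and Tmem106b probe 3 (A_52_P16320) from 13021863 to 13021922.

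Each gene had a probe well above background in all 24 readings (12 arrays, 2 dyes), and these probes, numbered 1, carry the values below. Sort1 probe 2 passed in 23 readings and Sort1 probe 3 in 14. Just inside the filter stood Sort1 probe 3, with 5 of 6 readings in MEC mutants, and just outside stood Sort1 probe 4 and Tmem106b probe 2, each with at most 3 of 6. Not kept were Grn probe 2 (4 of 24 readings, all in MEC), Sort1 probe 4 (7), Psap probe 2 (7), Tmem106b probe 2 (6) and Tmem106b probe 3 (0), whose Cy5 readings were well above background on 0 of 12 arrays. Of 264 readings of the 11 probes, 0 were saturated and 0 were marked as outliers. Levels of different probes were not set against each other, since a probe's brightness depends on its sequence.

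As whole-series checks, the share of spots well above background per array was 48.2% to 67.9% for Cy3 and 14.8% to 30.4% for Cy5. All MEC arrays were scanned on 1 day and all LEC arrays on another, so region and scan day cannot be told apart. Naglu itself had 2 probes, both below the filter (12 and 0 of 24 readings), with pair ratios between −0.05 and 0.09, and where they lie relative to the disrupted part is not known, so they check nothing. Of 10 neuronal markers 9 were measured, with a summed level of 12.2 to 12.4 in MEC and 12.3 to 12.5 in LEC (log2 intensity); Slc17a7, the vesicular glutamate transporter of cortical neurons, was below the filter. Of the 9, 6 were higher in MEC (Nefl 2.27-fold) and 2 in LEC (Nrgn 2.24-fold) by limma. Among all 9544 named genes 12.5% were higher in MEC and 13.5% in LEC. Of all probes called for level, 46.6% were higher in MEC, but 2.80% with arrays centred on their medians in place of quantile normalisation. The direction of replicate 2 is not settled: in both regions the authors' value table opposes the labelled dyes, and 5 of the 6 LEC scanner files match another LEC sample's column of that table. Arrays were assigned and turned as in that table, and values with replicate 2 turned as labelled are given beside the ratios.

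Grn, the gene of progranulin itself, read higher in LEC than in MEC at probe 1. The dim Grn probe 2, below the filter, did not show this (6.00 in MEC and 5.97 in LEC). All Grn values that follow are those of probe 1. The level of probe 1 in the 3 MEC pairs, as the mean log2 intensity of both dyes and so of both genotypes, was 7.78, 8.04 and 7.70, and in the 3 LEC pairs 9.11, 9.96 and 8.65. Every LEC pair lay above every MEC pair. The means were 7.84 ± 0.18 for MEC and 9.24 ± 0.67 for LEC (SD, n = 3 each), a MEC minus LEC difference of −1.40 (SE 0.28), or 2.64-fold higher in LEC. Before any normalisation its signal ranged from 120.3 to 419.5 in MEC and from 307 to 1497 in LEC in Cy3, and from 138 to 395 in MEC and from 543 to 3446 in LEC in Cy5, over local backgrounds of 24 to 41. Median Cy3 signals of whole arrays were also higher in LEC (78.8 to 91.8) than in MEC (66.5 to 77.3). In a capture of many cells, fewer cells of a type and less RNA per cell cannot be told apart.

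With signs as in the authors' table, the spread of Grn in LEC lay mostly in the controls. Its level was 9.49, 10.73 and 8.30 in LEC controls and 8.73, 9.19 and 8.99 in LEC mutants; with replicate 2 turned as labelled, 10.73 and 9.19 change places and the wider spread lies in the mutants. With the table's signs, the order of the group means ran from LEC controls (9.51 ± 1.21, SD, n = 3) through LEC mutants (8.97 ± 0.23, SD, n = 3) and MEC controls (7.98 ± 0.40, SD, n = 3) to MEC mutants (7.70 ± 0.27, SD, n = 3). The MEC controls read 7.59, 8.38 and 7.96 and the MEC mutants 7.96, 7.70 and 7.43. LEC mutants lay above all MEC values, whereas the lowest LEC control fell just under the highest MEC control. Within each region the genotypes overlapped. Turned as labelled, LEC mutants averaged 9.48, LEC controls 8.995, MEC mutants 7.93 and MEC controls 7.75, so the order of the genotypes is not settled.

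Psap, the prosaposin gene, also read higher in LEC. Its level was 6.43, 6.42 and 6.36 in the MEC pairs and 6.59, 6.77 and 6.78 in the LEC pairs, again without overlap. The means were 6.40 ± 0.04 and 6.71 ± 0.11 (SD, n = 3 each), which put LEC 1.24-fold above MEC (MEC minus LEC −0.31, SE 0.06). In order, LEC mutants averaged 6.76, LEC controls 6.66, MEC controls 6.41 and MEC mutants 6.40, and with replicate 2 turned the genotypes changed places (LEC controls 6.78, LEC mutants 6.65, MEC mutants 6.44, MEC controls 6.36). The genotypes overlapped within each region, and the lowest LEC control, 6.52, stood just above the highest MEC control, 6.50. The probe is dim, with Cy3 signals of 70.9 to 105 in MEC and 94.0 to 147 in LEC. With Agilent's processed signals the difference was −0.61; the cause was not tested.

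Tmem106b read the other way. Its level was 7.70, 7.65 and 7.81 in the MEC pairs and 7.33, 7.32 and 7.37 in the LEC pairs, so every MEC pair lay above every LEC pair. The means, 7.72 ± 0.08 and 7.34 ± 0.02 (SD, n = 3 each), differed by 0.38 (SE 0.05), or 1.30-fold, but with arrays centred on their medians in place of quantile normalisation the difference was −0.077. That setting moved the median difference of all kept probes from −0.02 to −0.17, so Tmem106b still stood above the median there. Before any normalisation its median signal was higher in LEC than in MEC, 176 against 144 in Cy3 and 250 against 196 in Cy5. By group, MEC controls averaged 7.72 and MEC mutants 7.72, and LEC controls 7.34 and LEC mutants 7.34. The lowest MEC mutant (7.47) was under the highest LEC control (7.59), so those neighbours overlapped. With replicate 2 turned, MEC mutants averaged 7.84, MEC controls 7.61, LEC controls 7.47 and LEC mutants 7.20, and the MEC mutants lay above all LEC values.

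Sort1, the sortilin gene, had pair levels of 8.22, 8.36 and 8.39 in MEC and 8.42, 8.37 and 8.70 in LEC at probe 1. The regions overlapped, and the difference of −0.17 (SE 0.09) lay between −0.74 and −0.04 over all settings. Its group means of 8.52 (LEC controls), 8.47 (LEC mutants), 8.43 (MEC mutants) and 8.21 (MEC controls) overlapped from each neighbour to the next. Turned as labelled, they were 8.64 (LEC mutants), 8.46 (MEC mutants), 8.35 (LEC controls) and 8.18 (MEC controls). Probe 2 overlapped as well (6.45, 6.44 and 6.42 in MEC, 6.31, 6.35 and 6.47 in LEC). Probe 3 pointed the other way from probe 1, with 6.11, 6.29 and 6.21 in MEC against 6.00, 5.98 and 6.09 in LEC, so the Sort1 probes disagreed on the region.

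**Figure D1:**
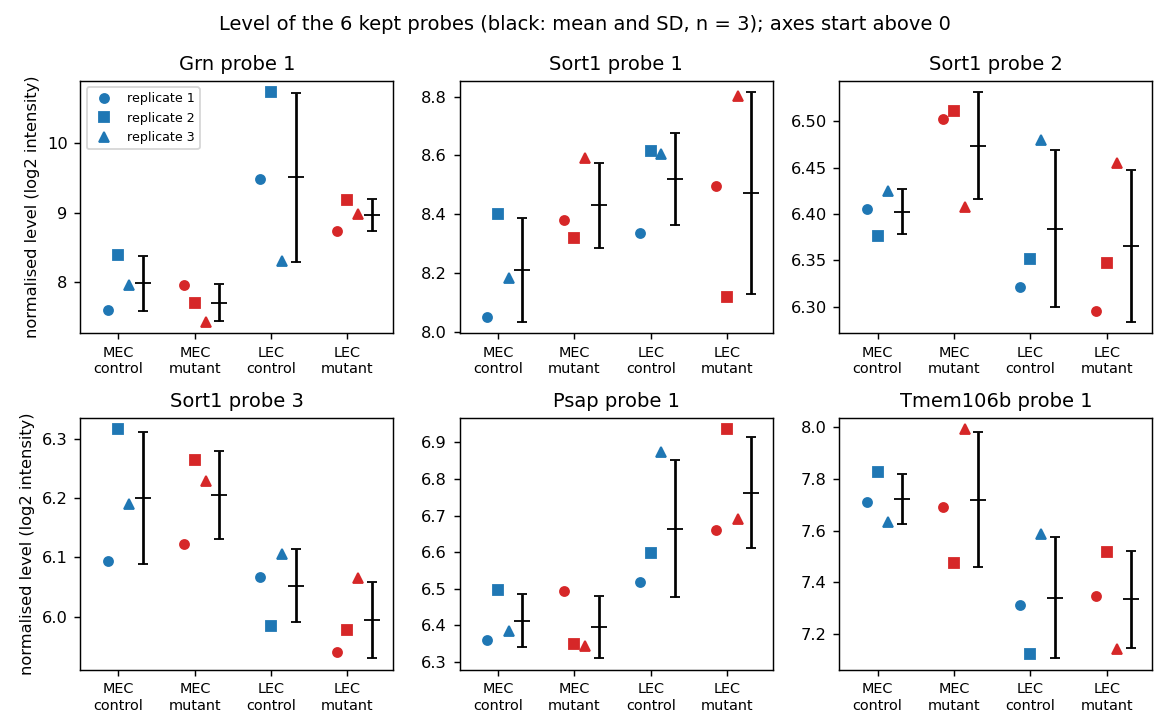
Normalised level (log2 intensity, vertical axis, not starting at 0) of the 6 kept probes in MEC and LEC controls (blue) and mutants (red), one marker shape per replicate, with mean and SD of 3 in black. Grn runs from 7.43 to 10.73 and is higher in LEC, Psap is higher in LEC by less, and Tmem106b is higher in MEC except under median centring of the arrays, where its difference is −0.077.

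Of the 6 kept probes, 3 passed limma's adjusted threshold of 0.05 for level between the regions, Grn and Psap higher in LEC and Tmem106b higher in MEC. Over all 12958 probes 24.3% passed, 11.3% higher in MEC and 13% higher in LEC, and since the members were proposed with these levels known nothing is read from the count. The pair means of 4 of the 6 probes did not overlap between regions, against 42.7% of all probes. The Grn difference was −1.37 without MEC replicate 1 and −1.53 with control channels alone, and neither was past the threshold. The Psap difference was −0.29 without replicate 2 of both regions, and with either genotype's channel alone neither Psap nor Tmem106b was past it. Sort1 probe 1 was past it in 2 of 19 alternative settings, higher in LEC, and Sort1 probe 3 in 4 of 17, higher in MEC.

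The dim probes of the same genes showed little. Grn probe 2, with 6.00 in MEC and 5.97 in LEC, overlapped between regions and so did not show the LEC excess of Grn probe 1. Psap probe 2 leaned to LEC (5.91 and 6.01) and Tmem106b probe 2 to MEC (5.96 and 5.87), both as their brighter probes did and both without overlap. Sort1 probe 4 averaged 6.07 in MEC and 5.96 in LEC, and Tmem106b probe 3 averaged 5.76 and 5.72. These 5 probes were not tested, and most of their readings were not well above background.

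The mutant comparison asked whether loss of Naglu changed these transcripts. Grn had log2 ratios of mutant over control of 0.37, −0.68 and −0.53 in MEC and −0.76, −1.54 and 0.68 in LEC. Here 4 of 6 pairs read lower in mutants and 2 read higher, and with replicate 2 turned as labelled 4 of 6 read higher. The extremes were 2.91-fold more in the control (LEC replicate 2) and 1.60-fold more in the mutant (LEC replicate 3). The MEC mean was −0.28 ± 0.57 and the LEC mean −0.54 ± 1.13 (SD, n = 3 each). Averaged over both regions it was −0.41 (SE 0.28), with a 95% interval of −1.06 to 0.24, and 0.33 with replicate 2 turned. Without LEC replicate 2 the average was −0.16, without LEC replicate 3 it was −0.72, and without replicate 2 of both regions −0.06.

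The 2 dye-swapped arrays of a pair gave Grn close values. The ratio had 1 sign on both arrays in 6 of 6 pairs, as in 5.39% of kept probes, and the arrays of a pair differed by 0.09 to 0.52. Its SD over the 6 pairs was 0.81, where the median of all kept probes was 0.14, and 0.44% of kept probes had a larger one. In LEC replicate 2 the arrays read −1.28 and −1.80, and in LEC replicate 3 they read 0.59 and 0.78. The median difference between arrays of a pair was 0.20 for Grn and 0.26 over all kept probes.

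Sort1 probe 1 read 0.33, −0.08 and 0.41 in MEC and 0.16, −0.50 and 0.20 in LEC. Its mean was 0.22 ± 0.26 in MEC and −0.05 ± 0.39 in LEC (SD, n = 3 each), with an average of 0.09 (SE 0.11, 95% interval −0.17 to 0.34). Replicate 2 was the low pair in both regions, and turned as labelled all 6 pairs read above 0, with an average of 0.28. Its 2 arrays had 1 sign in 3 of 6 pairs. Probe 2 ranged from −0.03 to 0.13 and probe 3 from −0.13 to 0.04, but the 2 arrays of probe 3 had opposite signs in 6 of 6 pairs, up to 0.97 apart. With Agilent's processed signals the pair ratios of probe 3 ran from −0.41 to 0.54.

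Psap read 0.14, −0.15 and −0.04 in MEC and 0.14, 0.34 and −0.18 in LEC, 3 pairs above 0 and 3 below. The means were −0.02 ± 0.14 and 0.10 ± 0.26 (SD, n = 3 each), and the average 0.04 (SE 0.08) had a 95% interval of −0.14 to 0.22. Tmem106b read −0.02, −0.35 and 0.36 in MEC and 0.03, 0.40 and −0.45 in LEC, again 3 pairs above 0. Its means were −0.0034 ± 0.36 and −0.0057 ± 0.42 (SD, n = 3 each), with a 95% interval of −0.30 to 0.29 for the average. Replicates 2 and 3 read in opposite directions in each region, and in opposite directions between the regions. With replicate 2 turned, Tmem106b averaged 0.23 in MEC and −0.27 in LEC, and Psap −0.02 over both.

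**Figure D2:**
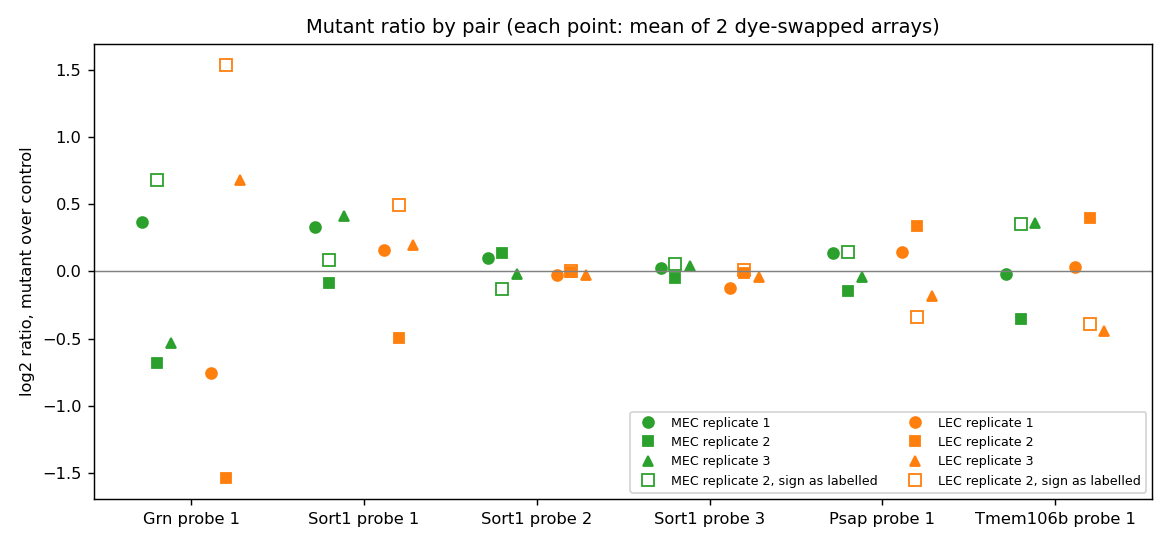
Log2 ratio of mutant over control (vertical axis) for each of 3 MEC pairs (green) and 3 LEC pairs (orange) at the 6 kept probes; open squares show replicate 2 with its sign as labelled. Grn runs from −1.54 to 0.68, while Sort1 probes 2 and 3 stay between −0.13 and 0.13.

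**Figure D3:**
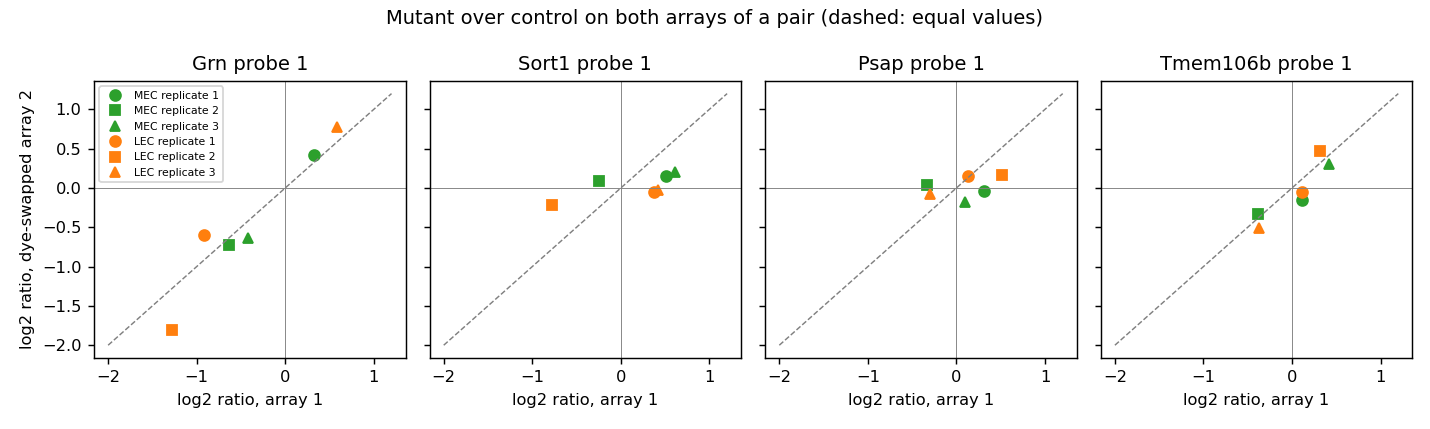
Log2 ratio of mutant over control on the first array (horizontal axis) and the dye-swapped array (vertical axis) of each pair, for the brightest probe of each gene. Grn points lie near the dashed line of equal values in all 6 pairs, with array differences of 0.09 to 0.52, and Psap values on single arrays run from −0.34 to 0.52.

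The difference of the mutant ratio between regions (LEC minus MEC) was −0.26 for Grn (95% interval −1.57 to 1.05), −0.27 for Sort1 probe 1 (−0.78 to 0.25), 0.12 for Psap (−0.24 to 0.47) and −0.0023 for Tmem106b (−0.60 to 0.59). Of the 6 kept probes 0 passed limma in MEC, LEC, their average or the difference, and of all 12958 probes 0% passed. Unadjusted p was under 0.05 for 133 probes in MEC, 197 in LEC, 274 in the average and 71 in the difference. With replicate 2 turned as labelled these counts were 1442, 1237, 1517 and 1146, and again 0 probes passed after adjustment. Over all alternative settings 0 of 378 ratio values of the members passed.

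Markers of other cell types were set beside these ratios by pair. Microglia also express Grn, and 13 of 18 microglial and macrophage markers were measured; C1qa, Itgam, Cd68, Ptprc and Fcgr3 were below the filter. Their mean ratio was 0.27, 0.27 and 0.27 in the MEC pairs and 0.17, 0.49 and 0.23 in the LEC pairs, with replicate 2 signed as in the authors' table; turned as labelled, its 2 values change sign, as those of Grn do. Lyz2 and Ctss carried much of this mean: over the 11 other markers it was 0.09, 0.11 and 0.06 in MEC and 0.02, 0.22 and 0.09 in LEC. Their summed level was 10.7, 10.6 and 10.7 in the MEC pairs and 10.6, 10.7 and 10.3 in the LEC pairs. Within LEC the pair with the lowest sum, replicate 3, was also the lowest for Grn. Within MEC it was the other way: the pair with the lowest sum, replicate 2, was the highest for Grn. The 5 measured astrocyte markers of 7 had a mean ratio of 0.51 in LEC replicate 2 and of −0.18 to 0.22 in the other pairs, and Gfap and Aqp4 were below the filter. The 3 interneuron markers had 0.47 in LEC replicate 2 and −0.23 to 0.21 elsewhere, with a summed level of 8.83 to 9.04 in MEC and 8.4999 to 8.63 in LEC. The 5 measured oligodendrocyte markers of 6 (Mog was below the filter) had mean ratios of 0.30, −0.23 and 0.28 in MEC and −0.22, 0.26 and −0.08 in LEC. In replicates 2 and 3 of both regions these have the signs of the Tmem106b ratios, and so do the astrocyte means. In replicate 1 of both regions both marker means have the opposite sign to Tmem106b (−0.02 in MEC and 0.03 in LEC). Their summed level, 9.996 to 10.3 in MEC and 9.60 to 9.75 in LEC, was higher in MEC without overlap, as was that of Tmem106b. The 3 measured endothelial markers of 4 (Pecam1 was below the filter) had mean ratios of −0.03 to 0.10. The part of these markers in the levels and ratios of Grn and its partners was not tested.

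Across the 12 values of level (2 regions, 2 genotypes, 3 replicates), Grn and Tmem106b ran opposite to each other (r = −0.78, and −0.48 within regions), values that share arrays and region. Grn and Psap had r = 0.50 over all values and −0.31 within regions. Among 9543 other named genes, those most like Grn were Wnt6 (r = 0.92), Vkorc1 (0.91) and Alppl2 (0.90). Those most like Psap were Unc5a (0.95), Ccn3 (0.95) and Msh6 (0.93), and those most like Tmem106b were Tm9sf3 (0.97), G3bp2 (0.97) and Far1 (0.96). For Sort1 they were Dpysl3 (0.89), Nprl2 (0.89) and Gramd1b (0.88). Each r is a description over 12 values from 12 arrays.

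The other genes of the pathway were taken from 6 lists with 75 genes, of which 50 were measured by a kept probe. In the mutant comparisons 0 of the 50 passed limma. The mean ratio was above 0 in 33 of the 50, against 4895 of 9544 named genes, with a median of 0.03 against 0.0016. With replicate 2 turned as labelled these became 38 of 50 and 5829 of 9544, with medians of 0.03 and 0.02. Between regions 10 were higher in MEC and 6 in LEC, against 12.5% and 13.5% of all 9544 named genes. With arrays centred on their medians these counts became 1 and 28, and of all calls 46.6% were higher in MEC in the main setting and 2.80% there.

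Of the sorting receptors and carriers, 14 of 18 were measured. The sortilin relative Sorl1 had the highest mean ratio, 0.07 (SE 0.06), and Vps35, a retromer subunit that retrieves sorting receptors, the lowest, −0.22 (SE 0.17). Vps35 read −0.07, 0.30 and −1.01 in MEC and −0.48, 0.26 and −0.35 in LEC. With replicate 2 turned as labelled, every Vps35 pair read below 0, with a mean of −0.41, and Sorl1 averaged 0.12. The mannose 6-phosphate receptors M6pr (MEC minus LEC −0.18, adjusted p = 0.028 by limma) and Igf2r (−0.19, adjusted p = 0.042) were higher in LEC, the side of Grn and Psap. Sorcs3, another sortilin relative, was higher in MEC (0.20, adjusted p = 0.036).

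Of the genes that process progranulin and prosaposin, 7 of 11 were measured. Ctss, the protease cathepsin S, read 0.90, 0.51 and 0.94 in MEC and 0.79, 1.41 and 0.32 in LEC, above 0 in 6 of 6 pairs, with a mean of 0.81 (SE 0.14). Turning replicate 2 as labelled left 0.17, and the gene did not pass limma (adjusted p = 0.93 for the average over regions). The lowest was Mmp14, a membrane protease that sheds progranulin, at −0.15 (SE 0.17). It read −0.03, 0.40 and −0.82 in MEC and −0.52, 0.37 and −0.32 in LEC. With replicate 2 turned as labelled, every Mmp14 pair read below 0, with a mean of −0.41. Cathepsin L, Ctsl, was higher in MEC by 1.11 (SE 0.08, adjusted p = 0.00038), 2.16-fold. Also higher in MEC were Ctsd (0.39), Lgmn (0.20) and Ctsb (0.19), proteases that cut prosaposin or progranulin. With median-centred arrays Ctsb was lower in MEC (−0.40), and of all measured pathway genes only Ctsl still passed limma as higher in MEC. Mmp14 was 1.78-fold higher in LEC.

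Among sphingolipid enzymes 8 of 12 were measured. Gla, the alpha-galactosidase A gene, had the lowest ratio (−0.05, SE 0.05), and Hexa, a hexosaminidase subunit gene, was higher in LEC (−0.20, adjusted p = 0.019 by limma). Of the prosaposin receptors and the TMEM106 family, 4 of 8 were measured: the candidate prosaposin receptor Gpr37l1 read 0.24 (SE 0.13, and 0.04 with replicate 2 turned) and the microtubule protein Map6, a Tmem106b binder, −0.04 (SE 0.05). The lysosomal membrane proteins Lamp1 (0.35) and Lamp2 (0.34) were higher in MEC, the side of Tmem106b. Of 4 genes of the TFEB branch only the lysosomal calcium channel gene Mcoln1 was measured, at −0.07 (SE 0.07), with a level 0.31 higher in MEC. With replicate 2 turned as labelled, the mean ratios were −0.09 for Gla, −0.09 for Map6 and 0.01 for Mcoln1.

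Of the frontotemporal dementia and ceroid lipofuscinosis genes, 16 of 22 were measured. Trem2, a microglial receptor, read 0.47, 0.57 and 0.15 in MEC and 0.27, 0.50 and 0.39 in LEC, with a mean of 0.39 (SE 0.07) that became 0.04 with replicate 2 turned, and Cln8 was lowest at −0.05 (SE 0.04). Turned, Cln8 read 0.02, and the lowest gene was Sqstm1 at −0.11. Trem2 did not pass limma (adjusted p = 0.93 for the average). The autophagy receptor Sqstm1 (1.55-fold) and the tau gene Mapt (1.37-fold) were higher in LEC, and Ppt1 (1.21-fold) and Chmp2b (1.15-fold) were higher in MEC. Ctss and Trem2 also stand in the microglial list.

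**Figure D4:**
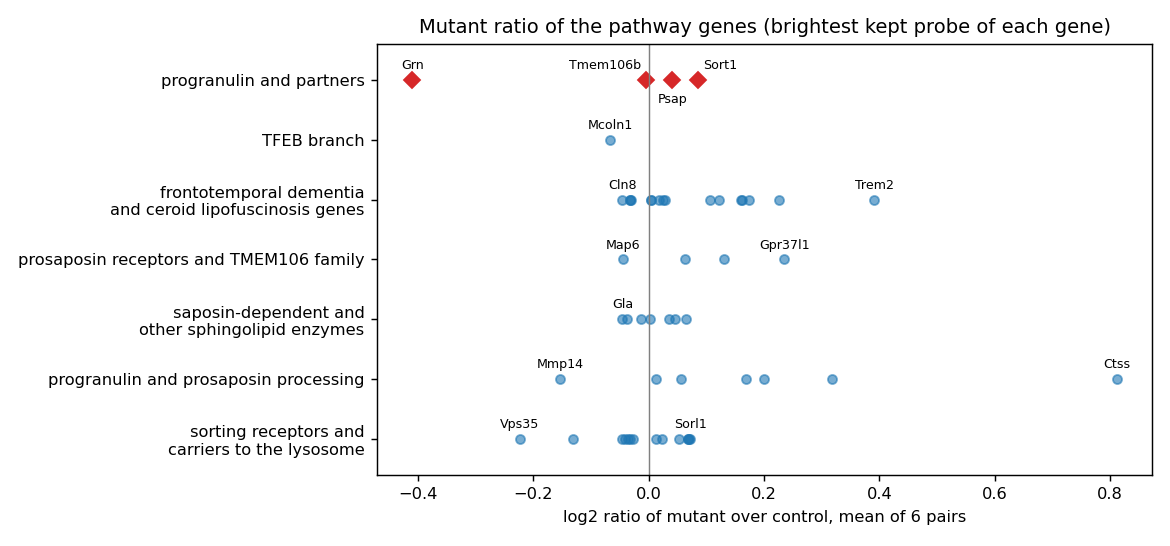
Mean log2 ratio of mutant over control over 6 pairs (horizontal axis) for measured pathway genes, a row per list, with the brightest probe of the 4 members as red diamonds. Ctss at 0.81 and Trem2 at 0.39 lie farthest right, Grn at −0.41 lies farthest left, and the other 3 members lie between −0.0046 and 0.09. With replicate 2 turned as labelled, Ctss would stand at 0.17, Trem2 at 0.04 and Grn at 0.33, with Mapt (0.35) farthest right and Vps35 (−0.41) farthest left.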

How the data were processed

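The deposited scanner files hold raw mean signals and local backgrounds as intensity per spot and dye, Agilent's background-subtracted and dye-normalised intensity, a log10 ratio of Cy5 over Cy3, and flags of 0 or 1, per the file headers. The authors' deposited value table holds log2 ratios whose centring and direction are not stated; its signs were used as mutant over control. Feature Extraction was version 9.5.1.1 per the file headers and 8.5.1.1 per the submitters' processing notes, and probe coordinates are in build mm8.

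With limma 3.58.1 under R 4.3.3 (tables read by the data.table package, version 1.17.8), signals were corrected by normexp (offset 50), balanced by loess within arrays and quantile-normalised for level (Aquantile). Outlier spots were left out, and the 2 arrays of a pair were averaged. Each column of the value table matched 1 array (correlation 0.995 to 0.999 in size over 9166 bright spots, at most 0.657 with any other), which set the assignment and sign. With this assignment, arrays were scanned in the order of the replicates in both regions.

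The limma fit used 6 pair means with a mean per region and a shared spread, over 12958 kept probes. P-values are two-sided, adjusted by Benjamini-Hochberg with a threshold of 0.05, and measure only the spread between these pairs; if both regions came from the same mice, those of the average are too small. With 3 pairs per region, the number of arrays limits the precision. Arrays give no level per length, so levels of different genes were not compared. Correlations of deviations for ratios were −0.36 to −0.01 in same-numbered MEC and LEC pairs, and −0.37 to 0.43 in differently numbered pairs. No block was used in the main fit. These correlations cannot show whether the regions shared mice, since replicate 2's direction and the LEC files are not settled. With the replicate number as a block, the SE of the level difference was 0.163 in place of 0.283 for Grn and 0.065 in place of 0.061 for Psap.

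Members and lists were chosen with earlier results of these data known. Named were all member probes, the gene with the highest and lowest mean ratio in each list and each gene that passed a test, and the 3 genes most correlated with each member. A gene that this rule selects is not reported here. Genes were represented by their brightest kept probe, named with RefSeq tables (GRCm38.p6): of 41174 probes, 23374 matched by accession, 6733 by symbol, 2919 by an older symbol and 8148 not. Fitting was tested on simulated data. Alternatives covered background, dye and between-array normalisation, filter, direction, assignment, pairs and channels.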

Additional observations from a re-analysis of the deposited data

How the results depend on the processing

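Over all alternatives, 489 values of single member probes were recomputed: 461 moved by less than the SD between pairs and 27 by more. Many of these values could not move. A changed filter leaves a probe's own value as it is, and leaving out a pair leaves the other region's ratio. The members' levels do not change with the labelled files and dyes, centring of ratios or a block. The 461 is therefore no measure of stability, and the 378 ratio values include such fixed values too. Of the 378 ratio values 68 took the other sign, all of values that had not passed, among them the average of Grn (0.33 with replicate 2 turned). Of the values that had passed, 1 changed sign: the level of Tmem106b, 0.38 higher in MEC, which read −0.077 with arrays centred on their medians in place of quantiles, a setting that shifts the median of all probes to −0.17; the cause was not tested. For the mutant ratio, 0 probes passed in MEC or averaged over regions, and leaving out 1 replicate gave 0 to 1 in each: the single call, without LEC replicate 2, was Lyz2, a macrophage lysozyme gene named after its value was seen (1.79 in MEC and 1.60 averaged). The count for level, 3148 of 12958 probes, ranged from 1953 to 2911 when leaving out 1 replicate. It was 926 without replicate 2 of both regions, 624 with control channels alone, 454 with mutant channels alone and 6745 with median-centred intensities. Pathway genes higher in MEC (10) ranged from 6 to 10 with 1 replicate left out and were 2, 2, 1 and 1 under those same 4 settings, and Ctsl was among them in each. Those higher in LEC (6) ranged from 2 to 6 and were 3, 1, 1 and 28, with Sqstm1 in each. Fewer pairs or single channels enter 3 of these settings. With the replicate number as a block, 0 probes passed for the difference between regions and 2743 for level. Slide or scan day as a block was not run: each slide held 1 array and each region 1 scan day. Dim probes limit what Sort1 probes 2 and 3 and Psap can show: with Agilent's processed signals the level of Sort1 probe 3 differed by 0.52 in place of 0.18.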
